A study of Homo sapiens with 14 samples.

Results

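RNA from 22Rv1 cells at 1 h of induced FOXA1 degradation was set against RNA from 22Rv1 cells at 0 h. The members were the 1 h and 0 h columns of 1 table of raw gene counts, which are 4 of the 14 libraries of the series, with 2 libraries at each time. Of 57905 genes in the table, 19397 passed a filter on low counts and were tested. 22Rv1 is an established human prostate carcinoma line. The genotype label of both groups is WT, FOXA1_dTAG, so the 0 h cells carried the degradable FOXA1 fusion too. The treatment note says that dTAG or DMSO was given, but not which libraries received which agent, nor the dose. No title names cells held for 1 h in vehicle alone or untagged cells given the degrader. An hour of handling, the compound itself and loss of FOXA1 therefore cannot be told apart in this comparison. The labels do not say whether the tagged line is a single clone. They also do not say that replicates came from separate cultures, and p-values then cover only the differences among libraries, which may be technical. The 2 dTAG libraries at 24 h, of the same genotype, give later values of the same genes.

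FOXA1 is a forkhead transcription factor that opens chromatin for other factors, among them the androgen receptor, and it marks the luminal lineage of the prostate. In a dTAG system a small molecule links a tagged protein to a ubiquitin ligase, and the proteasome then removes the protein. Immediate early genes are transcribed within minutes of a growth factor, serum, stress or calcium signal without new protein synthesis, and their mRNAs are short-lived. Many of them are switched on through serum response elements (CArG boxes, bound by SRF) and cyclic AMP response elements (CRE, bound by CREB) close to the transcription start.

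Promoters are shown for FOS, FOSB and EGR1, which were among the largest falls at 1 h, and for DUSP6, a gene that fell and whose window held a forkhead motif. The sequences are from RefSeq on GRCh38.p14, 250 bases before to 50 bases after the start, written in the direction of the gene. The EGR1 window is chr5:138465229-138465528 on the plus strand, FOS is chr14:75278578-75278877 on the plus strand, FOSB is chr19:45467746-45468045 on the plus strand and DUSP6 is chr12:89352452-89352751 on the minus strand. Capitals mark CArG boxes and the CRE core TGACGT, read on either strand, in EGR1, FOS and FOSB. In DUSP6 they mark the forkhead motif TGTTTGC.
EGR1: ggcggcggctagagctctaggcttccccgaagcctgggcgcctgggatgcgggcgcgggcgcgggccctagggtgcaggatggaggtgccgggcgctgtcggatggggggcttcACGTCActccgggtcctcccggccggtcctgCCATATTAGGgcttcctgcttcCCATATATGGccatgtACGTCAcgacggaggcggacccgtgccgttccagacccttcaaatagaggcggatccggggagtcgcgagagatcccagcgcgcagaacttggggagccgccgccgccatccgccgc
FOS: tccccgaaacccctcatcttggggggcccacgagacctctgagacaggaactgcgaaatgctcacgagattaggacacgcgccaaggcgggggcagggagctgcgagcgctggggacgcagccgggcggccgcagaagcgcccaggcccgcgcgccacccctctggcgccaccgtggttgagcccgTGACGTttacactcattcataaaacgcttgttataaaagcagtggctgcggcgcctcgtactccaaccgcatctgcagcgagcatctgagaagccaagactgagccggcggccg
FOSB: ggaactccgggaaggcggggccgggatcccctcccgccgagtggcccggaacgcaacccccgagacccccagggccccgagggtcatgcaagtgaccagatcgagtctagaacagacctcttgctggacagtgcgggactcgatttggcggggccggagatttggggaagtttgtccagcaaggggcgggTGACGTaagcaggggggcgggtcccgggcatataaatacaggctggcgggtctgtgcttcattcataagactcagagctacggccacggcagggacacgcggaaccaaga
DUSP6: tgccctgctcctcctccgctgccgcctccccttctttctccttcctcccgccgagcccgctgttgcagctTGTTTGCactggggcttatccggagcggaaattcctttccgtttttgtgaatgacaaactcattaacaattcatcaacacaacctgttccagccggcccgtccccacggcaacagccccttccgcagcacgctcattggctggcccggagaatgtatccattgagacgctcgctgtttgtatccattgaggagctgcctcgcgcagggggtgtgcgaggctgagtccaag
EGR1 had CArG boxes from 105 to 96 and from 83 to 74 bases before the start, and CRE cores from 136 to 131 and from 67 to 62 bases before it. FOS had a CRE core from 64 to 59 bases before the start and FOSB from 60 to 55, and neither window held a CArG box. Bases beyond 250 before the start were not searched, so a CArG box further upstream would be missed. The DUSP6 forkhead match lay from 180 to 174 bases before the start.

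The same motifs were searched on both strands in the RefSeq promoters of all genes. Of the 128 genes called at least 2-fold lower at 1 h, 49 had a promoter in the table, 65 promoters in all, and of the 83 called at least 2-fold higher, 35 had one, 40 promoters in all. The CRE core TGACGT, which was added after the sequences had been seen and which lies within the full CRE, was in 13.8% of the promoters of genes that fell, 2.5% of those of genes that rose and 10.1% of the 17926 promoters of all tested genes. Among the genes that fell, those with the core were DIO2, EGR1, EGR2, EGR4, FOS, FOSB, NPAS4 and RGS1. The full CRE TGACGTCA was in 1.54%, 0% and 2.61%, and the CArG box in 4.62% (EGR1, EGR2 and GBP1), 0% and 1.1%. The forkhead motifs TGTTTAC and TGTTTGC were in 4.62% of the promoters of genes that fell, 5% of those of genes that rose and 5.63% of all tested. The AP-1 motif (TGACTCA or TGAGTCA) was in 6.15%, 7.5% and 3.59%, the C/EBP motif TTGCGCAA in 0%, 0% and 0.201%, and the glucocorticoid receptor motif AGAACA in 20%, 12.5% and 10.1%. These shares are descriptions of short windows and were not tested. Known CREB targets went both ways: of 12 tested, 5 were called lower and 3 higher, with a median log2 fold change of -0.15. With a correction for GC content and transcript length 4 were lower and 2 higher, with a median of -0.06.

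Library totals were 34.2 and 34.0 M counts at 1 h and 34.3 and 35.5 M at 0 h. FOXA1 mRNA does not measure the loss of the protein: it was 168 and 166 CPM (TMM-scaled) at 1 h and 169 and 167 CPM at 0 h, a log2 fold change of -0.0057 (adjusted p = 0.941). Luminal markers were abundant, with 23 of 23 detected and a summed level of 7659 and 7647 CPM at 1 h and 7192 and 7155 CPM at 0 h. The basal marker TP63, the endothelial marker CDH5 and the T-cell marker CD3E had no counts in any of the 4 libraries. In all, 2 of 14 basal, 1 of 7 endothelial and 3 of 10 leukocyte markers had none. Summed levels at 1 h and 0 h were 72.8 and 73.3 against 78.6 and 75.3 CPM for 14 basal markers, 24.7 and 25.6 against 24.9 and 25.6 CPM for 11 fibroblast markers, 1.78 and 1.62 against 1.43 and 1.86 CPM for 7 endothelial markers, and 2.11 and 2.47 against 2.92 and 2.28 CPM for 10 leukocyte markers. The 20 neuroendocrine markers summed to 1548 and 1563 CPM at 1 h and 1500 and 1479 CPM at 0 h. The highest was PEG10, at 729 and 723 CPM at 1 h and 723 and 714 CPM at 0 h. The neuroendocrine factor NEUROD1 was the only 1 of the 20 with no counts in any of the 4 libraries. In bulk RNA, fewer cells of a type and less RNA per cell cannot be told apart.

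After 1 h, 3850 genes differed from 0 h at an adjusted p under 0.05, which is 19.8% of those tested. Of these, 2081 (10.7%) were higher and 1769 (9.12%) were lower, and the median log2 fold change over all tested genes was 0.00074. The counts of list members given below are to be read beside these shares of all tested genes. Adjusted p-values are from edgeR's quasi-likelihood test with Benjamini-Hochberg adjustment over all tested genes. Most changes were small: 83 genes (0.428%) were called at least 2-fold higher and 128 (0.66%) at least 2-fold lower. Both 1 h libraries lay above both 0 h libraries for 28.6% of genes and below them for 27.8%. The call count depended on the libraries: it was 2428 without 1 h replicate 1 and 2232 without 1 h replicate 2, and 1497 genes were called in every one of these and in both fits that left out a 0 h library. Each such fit has 1 library at one time, so its spread comes from the pair at the other time and the lone library is assumed to vary alike. The 24 h comparison uses the same 0 h libraries and called 46.9% of its genes, so 24 h values are given beside the 1 h values as values only.

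**Figure D1:**
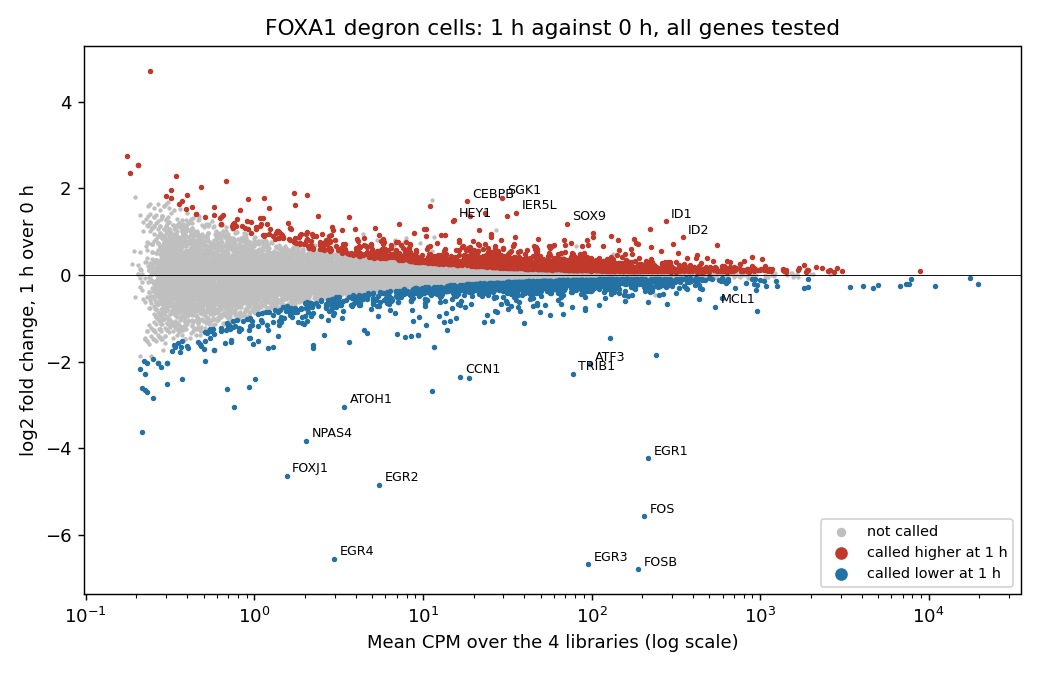
Log2 fold change of 1 h over 0 h for each tested gene (vertical) against its mean CPM over the 4 libraries (horizontal, log scale), with called genes in red (higher) and blue (lower). The falls reach -6.80 for FOSB, while the labelled rises stay under 2, with SGK1 at 1.78.

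The deepest change at 1 h was a loss of activity-induced transcription factor mRNAs. FOS, the DNA-binding partner of JUN in AP-1, was at 8.78 and 8.09 CPM at 1 h and at 413.5 and 391.8 CPM at 0 h, a 47.7-fold difference. FOSB, its close relative, was at 3.51 and 3.25 CPM at 1 h and at 378 and 376 CPM at 0 h, a 111-fold difference. Replicates of each time were close for both genes. The choice of the largest falls required that the times did not overlap. Both 1 h libraries lay below both 0 h libraries for 27.8% of all tested genes. EGR1, a zinc finger factor induced by growth factors, was at 21.8 and 22.2 CPM at 1 h and at 423 and 402 CPM at 0 h (log2 -4.23 ± 0.041, adjusted p = 4.07e-83). EGR3 was at 1.82 and 1.88 CPM at 1 h and at 193 and 186 CPM at 0 h (log2 -6.68 ± 0.070). The remaining EGR genes were lower from a smaller base. EGR2 was at 0.381 and 0.352 CPM at 1 h and at 11.6 and 9.64 CPM at 0 h, and EGR4 at 0.0293 and 0.088 CPM at 1 h, which is 1 and 3 counts, and at 6.70 and 5.05 CPM at 0 h.

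Of the 11 tested members of the EGR, NR4A and NPAS4 list, 8 were called lower and 1 higher, beside 9.12% and 10.7% of all tested genes, and the list median was -1.69. NPAS4, a factor known from neurons as a calcium-induced gene, was at 0.381 and 0.147 CPM at 1 h and at 3.95 and 3.66 CPM at 0 h. NR4A1, an orphan nuclear receptor, was at 38.1 and 41.1 CPM at 1 h and at 73.0 and 76.3 CPM at 0 h (log2 -0.92 ± 0.050). NR4A3 was also called lower (-0.52 ± 0.15, adjusted p = 0.00724), but not without 1 h replicate 1 or without 0 h replicate 1 (adjusted p of at most 0.0763) or with DESeq2 (adjusted p = 0.0713). NR4A1AS, a long noncoding RNA named for NR4A1, was at 0.176 and 0.205 CPM at 1 h and at 1.17 and 1.21 CPM at 0 h, and without a stated strand setting reads of such a partner cannot be told apart from those of NR4A1 where they overlap. The member that rose was NAB2, a corepressor of EGR proteins, at 39.4 and 39.8 CPM at 1 h and 27.0 and 26.8 CPM at 0 h (0.56 ± 0.060).

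AP-1 genes did not move together. Of 14 tested members, 5 were called lower and 2 higher, with a list median of -0.25. With a correction for GC content and transcript length, 8 were called lower and 2 higher. ATF3, a stress-induced bZIP factor, was at 37.9 and 37.4 CPM at 1 h and at 157 and 158 CPM at 0 h (-2.07 ± 0.042). MAFF, a small MAF protein, was at 9.55 and 12.4 CPM at 1 h and at 19.6 and 17.8 CPM at 0 h (-0.77 ± 0.095). The JUN genes, named here after their values were seen, stood apart from FOS and FOSB in size. JUN was at 334.7 and 349.3 CPM at 1 h and at 357.3 and 356.5 CPM at 0 h, a log2 fold change of -0.06 that was not called (adjusted p = 0.135) but was called at -0.10 with the correction (adjusted p = 0.00334). JUND was not called at 0.10 (adjusted p = 0.123) and turned to a called -0.19 with the correction (adjusted p = 0.00093). JUNB was called lower at -0.32 ± 0.037 (-0.49 with the correction). The AP-1 genes called higher were FOSL2 (0.30 ± 0.042) and JDP2 (0.48 ± 0.062), a dimerization partner of JUN.

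The 0 h libraries stood above every other library of the series for several of these genes, including the control hairpin libraries, whose titles name 22Rv2 cells while their cell line label is 22Rv1. In CPM of the library total, FOS was at 412.3 and 391.1 at 0 h, 8.78 and 8.11 at 1 h and 9.60 and 8.50 at 24 h. It was at 60.7 and 64.0 with the FOXA1 hairpin, 67.7 and 62.9 with the control hairpin, 20.3 and 22.4 in R219S cells and 26.3 and 26.5 in WT cells of the dTAG background. FOS at 1 h was thus below both control groups of the other tables as well. EGR1 at 1 h (21.7 and 22.2) likewise lay below the control hairpin (121.6 and 117.9) and WT cells (91.4 and 92.9), and the 0 h level lay above them. ATF3 and DUSP1 differed from this: ATF3 at 1 h (37.9 and 37.5) was close to WT cells (40.06 and 40.02), and DUSP1 at 1 h (36.4 and 34.5) was above the control hairpin (28.98 and 26.58) and WT cells (15.8 and 15.8). EGR3 at 1 h (1.81 and 1.88) was just below the control hairpin (2.04 and 2.98) and well below WT cells (14.2 and 14.3). Of the falls with few counts, FOXJ1 at 1 h (0.117 and 0.1175) lay within the control hairpin pair (0.233 and 0.082) and the WT pair (0.078 and 0.15). NPAS4 at 1 h (0.38 and 0.147) overlapped the control hairpin (0.088 and 0.19) and WT cells (0.31 and 0.11). The tables were counted separately, so these levels were not tested against each other. Whether it is the 0 h level or the 1 h level that departs from undisturbed cells was not tested.

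**Figure D2:**
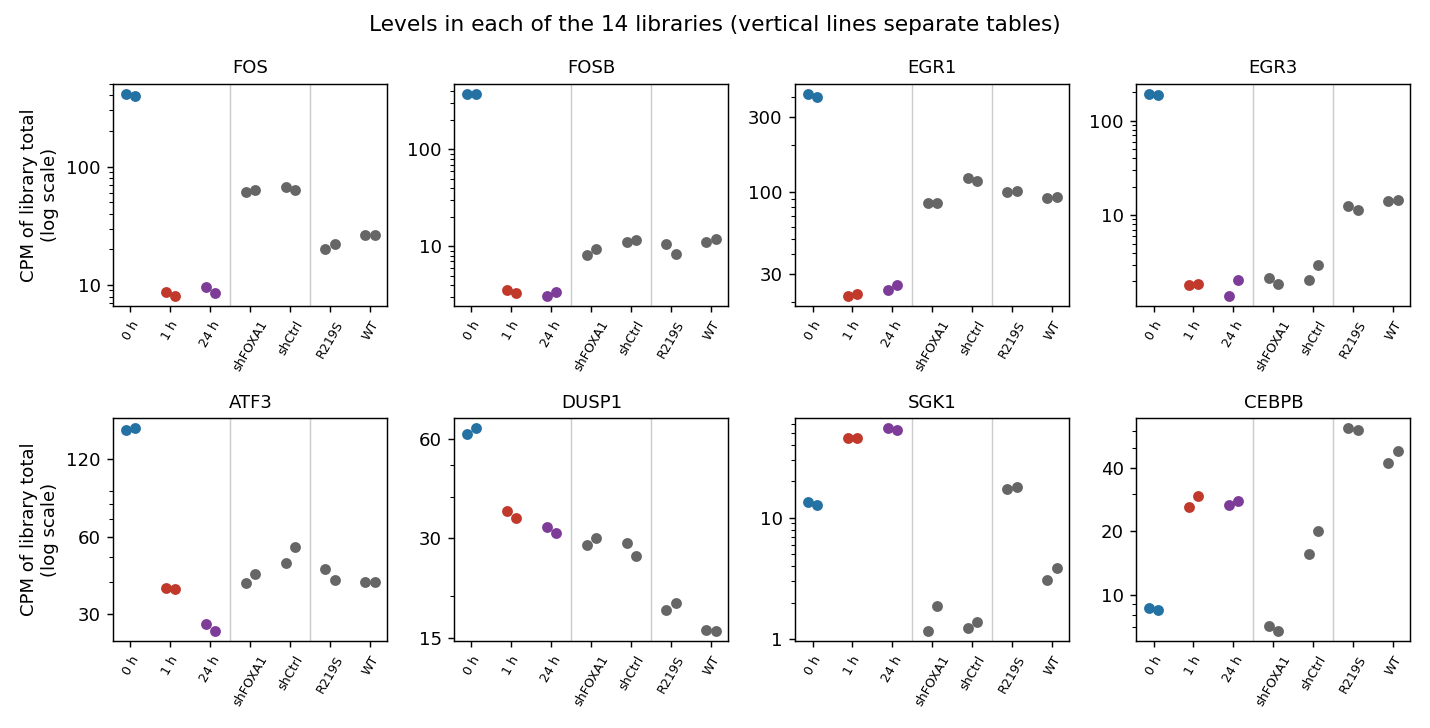
CPM of the library total (log scale) of 8 genes in each of the 14 libraries, with the dTAG time course, the hairpin table and the R219S table separated by lines. FOS, FOSB, EGR1, EGR3 and ATF3 are highest in the 0 h libraries, while SGK1 is highest at 1 h and 24 h and CEBPB is highest in R219S cells.

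Of 18 genes that damp growth factor signalling, 5 were called lower, 1 higher and 12 not called, with a median of -0.03. Over all tested genes 9.12% were called lower and 10.7% higher. DUSP6, a phosphatase of ERK, was at 5.56 and 4.81 CPM at 1 h and at 14.0 and 13.0 CPM at 0 h (-1.38 ± 0.12). DUSP1, a nuclear phosphatase of p38, JNK and ERK, was at 36.5 and 34.4 CPM at 1 h and at 62.3 and 64.7 CPM at 0 h (-0.84 ± 0.052). DUSP5 (-1.55 ± 0.19) and DUSP4 (-0.66 ± 0.066) were lower too. DUSP2 went the other way, at 303 and 310 CPM at 1 h and 211 and 206 CPM at 0 h (0.55 ± 0.031). The SPRY inhibitors, named after their values were seen, were not called: SPRY1 was at -0.24 (adjusted p = 0.181) and SPRY2 at -0.23 (adjusted p = 0.081). HBEGF, an EGF receptor ligand, was at 10.0 and 8.77 CPM at 1 h and at 18.9 and 20.4 CPM at 0 h (-1.06 ± 0.093).

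Cytoskeletal targets of SRF included 7 genes called lower and none higher of 18 tested, with a median of -0.13. With the GC and length correction 8 were lower and 2 higher. SRF itself was at 67.6 and 68.2 CPM at 1 h and at 116.1 and 112.8 CPM at 0 h (-0.75 ± 0.041). ZYX, which codes for the focal adhesion protein zyxin, fell by 0.69 ± 0.052 and CNN2, a calponin, by 0.57 ± 0.046. ACTB, beta-actin, was at 1644 and 1618 CPM at 1 h and at 2040 and 1951 CPM at 0 h (-0.29 ± 0.024). CCN1, a matricellular protein and a target of SRF and YAP, was at 5.15 and 5.78 CPM at 1 h and at 28.2 and 27.5 CPM at 0 h, 5.1-fold lower. At 24 h it stood at 9.27 and 10.1 CPM. In the Hippo and YAP list, 4 of 13 were lower and none higher, and 2 of 13 were lower with the GC and length correction or without 1 h replicate 2.

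Other immediate early genes were split, with 14 called higher and 8 lower of 29 and a median of 0.09. MYC, the growth-promoting transcription factor, was at 126 and 124 CPM at 1 h and at 195 and 184 CPM at 0 h (-0.60 ± 0.035). MCL1, a short-lived survival protein of the BCL2 family, was at 406 and 407 CPM at 1 h and at 665 and 689 CPM at 0 h (-0.74 ± 0.027). A further fall, TRIB1, belongs to a separate list of C/EBP and tribbles (TRIB) genes, in which 3 of 6 rose and 1 fell. With the GC and length correction 2 of that list rose and 2 fell. TRIB1, a pseudokinase that steers C/EBP proteins to degradation, was at 27.4 and 25.5 CPM at 1 h and at 131 and 127 CPM at 0 h (-2.28 ± 0.047). The 1 h libraries lay below the 0 h libraries for MYC, MCL1 and TRIB1, as they did for 27.8% of all tested genes. On the other side of the immediate early list, CSRNP1, a nuclear protein, was at 135 and 135 CPM at 1 h and 69.9 and 67.8 CPM at 0 h (0.97 ± 0.039). IER5L was at 50.2 and 53.9 CPM at 1 h and 20.2 and 18.4 CPM at 0 h (1.43 ± 0.062). TOB1, an antiproliferative regulator of mRNA decay, was at 233 and 227 CPM at 1 h and 139 and 138 CPM at 0 h (0.73 ± 0.033), and stood at 140 and 140 CPM at 24 h. GADD45G rose by 0.84 ± 0.052. PIM3, a survival kinase named after its values were seen, was at 373.4 and 384.1 CPM at 1 h and 233.9 and 223.4 CPM at 0 h (0.73 ± 0.030).

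Members of the Kruppel-like family, zinc finger factors of proliferation and differentiation, also split, with 5 lower and 5 higher of 13. KLF2 was at 2.20 and 3.05 CPM at 1 h and at 6.64 and 6.06 CPM at 0 h (-1.27 ± 0.17). KLF5 (-0.86 ± 0.067), KLF4 (-0.78 ± 0.063) and KLF6 (-0.69 ± 0.050) were lower. KLF4 was at 45.7 and 46.9 CPM and KLF6 at 66.7 and 65.2 CPM at 24 h, both at or above their 0 h levels of 41.4 and 39.2 CPM and of 66.2 and 65.2 CPM. KLF10 (0.60 ± 0.052), KLF15 (0.53 ± 0.052), KLF9 (0.39 ± 0.047) and KLF13 (0.33 ± 0.046) were higher.

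Among genes known as glucocorticoid-responsive, 9 of 20 rose and 4 fell, with a median of 0.16. SGK1, a kinase that controls sodium transport and cell survival, was at 45.5 and 45.6 CPM at 1 h and at 13.6 and 12.9 CPM at 0 h, 3.44-fold higher (1.78 ± 0.068, adjusted p = 7.57e-38). CEBPB, a bZIP factor of metabolism and inflammation, was at 26.1 and 29.6 CPM at 1 h and at 8.63 and 8.46 CPM at 0 h (1.71 ± 0.087). DDIT4, an inhibitor of mTORC1, was at 28.7 and 26.5 CPM at 1 h and at 10.3 and 11.0 CPM at 0 h (1.37 ± 0.082). The groups did not overlap for any of these 3 genes, which the choice of the largest rises required. NFKBIA, the inhibitor of NF-kB, rose by 0.67 ± 0.048. FKBP5, a cochaperone of steroid receptors, was at 963 and 967 CPM at 1 h and 899.6 and 884 CPM at 0 h (0.11 ± 0.025, and 0.24 with the GC and length correction). DUSP1 (above) and ANGPTL4 (-0.22 ± 0.042, and -0.36 with the correction) of the same list fell.

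Inhibitors of differentiation were a set of abundant mRNAs that rose. ID1, a helix-loop-helix protein that blocks DNA binding of its partners and a BMP target, was at 380 and 395 CPM at 1 h and at 152 and 176 CPM at 0 h (1.24 ± 0.082). ID2 was at 458 and 438 CPM at 1 h and at 251 and 240.1 CPM at 0 h (0.87 ± 0.030). ID3 was at 684 and 687 CPM at 1 h and at 415 and 428 CPM at 0 h (0.70 ± 0.027), and at 484 and 454 CPM at 24 h. SMAD6 (0.62 ± 0.082) and SMAD7 (0.55 ± 0.057, named after its values were seen), the inhibitory SMADs, rose, while the pathway ligand TGFB2 fell (-0.37 ± 0.056). Over the TGF-beta and BMP list, 7 of 21 rose and 4 fell, with a median of -0.02, and 2 fell without 0 h replicate 1.

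Developmental transcription factors were split. Over all tested genes 10.7% were called higher and 9.12% lower. Of 15 hairy, proneural and DLX factors 4 were called higher and 4 lower, with 2 higher without 1 h replicate 2 and 2 lower without 1 h replicate 1. Of 22 ETS factors 5 were higher and 4 lower, and 3 and 1 with the GC and length correction, and of 10 SOX factors 3 were higher and 1 lower. SOX9, a factor of prostate budding and progenitors, was at 100.5 and 98.02 CPM at 1 h and at 45.2 and 42.5 CPM at 0 h (1.18 ± 0.045). HEY1, a repressor downstream of Notch, was at 20.5 and 22.2 CPM at 1 h and at 8.54 and 9.33 CPM at 0 h (1.26 ± 0.092), and HES4 was at 11.6 and 11.8 CPM at 1 h and 6.26 and 5.75 CPM at 0 h (0.97 ± 0.12, and 0.53 with the GC and length correction). Of 19 Notch genes 6 rose and none fell, but 2 rose without 1 h replicate 2 and 3 rose and 1 fell with the correction, and HES1, named after its values were seen, was not called (0.10, adjusted p = 0.277). ETS2 was at 164 and 175 CPM at 1 h and at 92.9 and 88.7 CPM at 0 h (0.90 ± 0.037). ONECUT2, a homeobox factor, fell (-0.50 ± 0.046, and -0.27 with the correction). DLX3, another homeobox factor, was at 17.6 and 15.3 CPM at 1 h and at 5.23 and 5.67 CPM at 0 h (1.59 ± 0.11). Of 23 Wnt pathway genes 5 were called higher and 4 lower, with a median of -0.07, and 4 and 2 with the correction. The Wnt receptors FZD1 (0.69 ± 0.045) and FZD7 (0.93 ± 0.10) were among the rises, whereas FZD5 fell (-0.41 ± 0.051). The Wnt inhibitor DKK1 was at 0.527 and 0.704 CPM at 1 h and at 2.13 and 1.78 CPM at 0 h (-1.66 ± 0.31).

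Of 15 SOCS and STAT genes, 4 were called higher, 1 lower and 10 not called, with a median of 0.02, and 3 were lower without 1 h replicate 1 or without 0 h replicate 1. SOCS2, a feedback inhibitor of cytokine receptors, was at 144 and 145 CPM at 1 h and at 89.3 and 91.8 CPM at 0 h (0.67 ± 0.037), and CISH, of the same family, was at 33.6 and 32.5 CPM at 1 h and at 18.1 and 17.6 CPM at 0 h (0.88 ± 0.070). At 24 h SOCS2 reached 256 and 256 CPM and CISH 30.6 and 30.3 CPM. EDN2, endothelin 2, was at 35.1 and 33.2 CPM at 1 h and at 11.8 and 13.5 CPM at 0 h (1.43 ± 0.076). The largest rises by fold included genes of low level whose replicates differed. LRRC26 was at 1.52 and 3.93 CPM at 1 h and at 0.556 and 0.902 CPM at 0 h, and its log2 fold change of 1.89 became 1.06 (adjusted p = 0.0761) without 1 h replicate 2. Its call was also lost in a joint fit with the 24 h libraries. ASCL2 was at 1.20 and 2.43 CPM at 1 h and at 0.439 and 0.789 CPM at 0 h, and lost its call without the same library (0.96, adjusted p = 0.199).

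**Figure D3:**
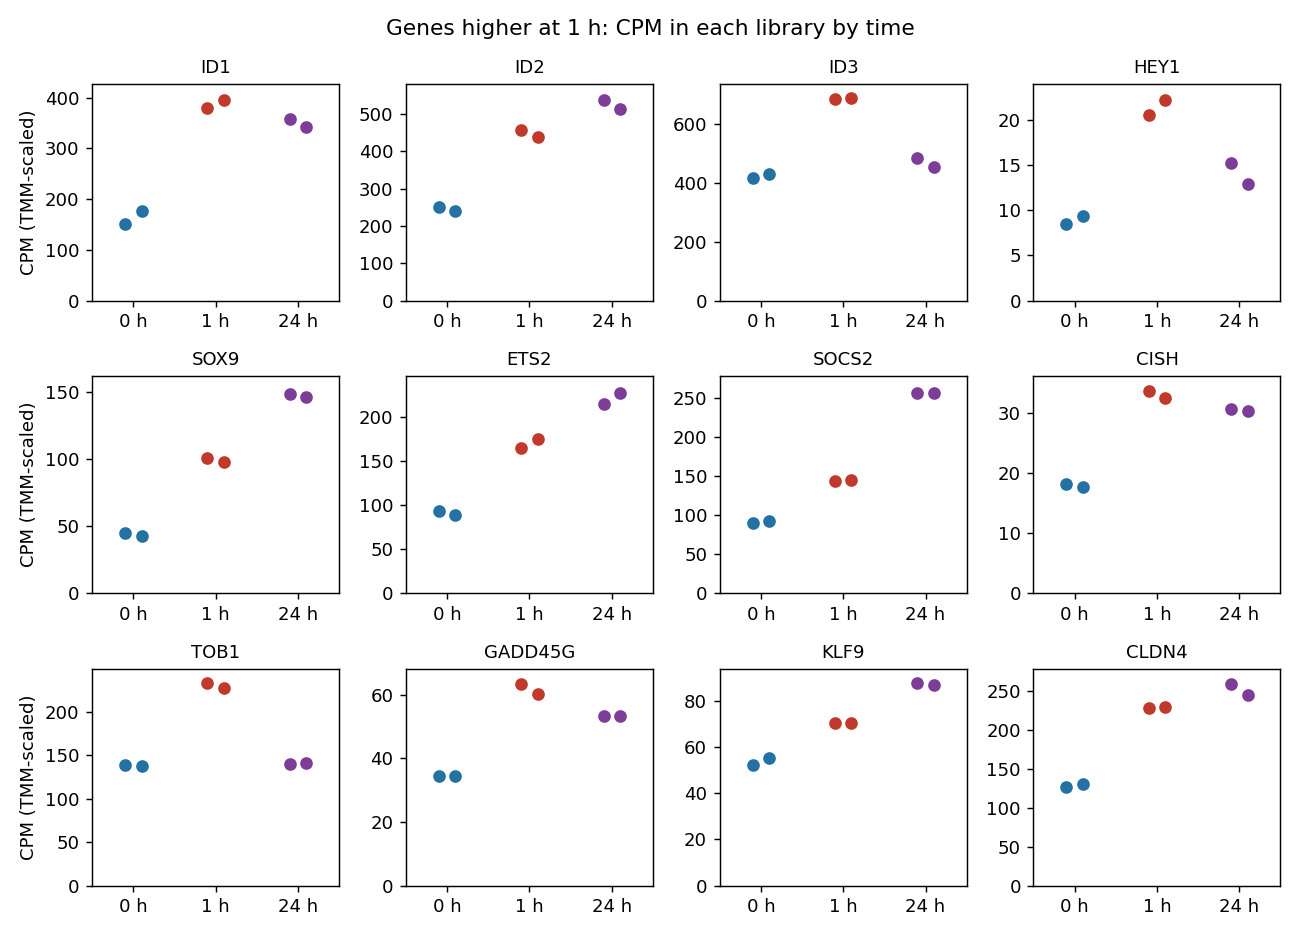
CPM (TMM-scaled, linear axis from 0) of 12 genes called higher at 1 h, in both libraries at 0 h, 1 h and 24 h. SOX9, ETS2 and SOCS2 are higher again at 24 h, ID3 and HEY1 stand between their 0 h and 1 h levels, and TOB1 is back at its 0 h level of 139 and 138 CPM.

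Androgen receptor targets were more often lower than higher at 1 h, and the kallikreins were not among the falls. Of 31 targets, 12 were called lower and 4 higher, with a median of -0.09. Without 1 h replicate 2 the counts were 6 lower and 1 higher, and with the GC and length correction 7 lower and 4 higher. MAF, a bZIP factor, was at 86.4 and 82.7 CPM at 1 h and at 134 and 138 CPM at 0 h (-0.69 ± 0.038), and at 26.8 and 27.9 CPM at 24 h. PTGER4, a prostaglandin receptor, was at 5.48 and 5.81 CPM at 1 h and at 12.2 and 11.5 CPM at 0 h, and at 10.8 and 10.6 CPM at 24 h. KLK3, the PSA gene, was at 155 and 154 CPM at 1 h and 141 and 141 CPM at 0 h (0.13 ± 0.034), a call lost without either 1 h library (adjusted p = 0.0836 and 0.0591) and with the GC and length correction (0.07, adjusted p = 0.115). KLK2 was not called (0.07 ± 0.028, adjusted p = 0.0565). KLK4 was at 0.10 ± 0.026, and it changed sign with the GC and length correction and lost its call without either 1 h library. Coregulators of the receptor had 10 lower and 1 higher of 27, 6 lower without 1 h replicate 2, and 6 lower and 4 higher with the correction.

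Luminal markers had 11 of 22 called higher and 3 lower, with a median of 0.14. With the GC and length correction 11 were higher and 2 lower, and the median was 0.078. CLDN4, a tight junction claudin, was at 228 and 230 CPM at 1 h and at 126 and 130 CPM at 0 h (0.83 ± 0.033). GATA2, a partner of the androgen receptor, was at 491 and 490 CPM at 1 h and at 365 and 352 CPM at 0 h (0.45 ± 0.028), and HOXB13 rose by 0.24 ± 0.031. SPDEF, an ETS factor of luminal and secretory cells, was at 31.3 and 32.5 CPM at 1 h and at 42.3 and 39.2 CPM at 0 h (-0.35 ± 0.059), and at 2.31 and 1.83 CPM at 24 h. ATOH1, a proneural factor, was at 0.82 and 0.645 CPM at 1 h and at 6.05 and 6.12 CPM at 0 h. It had no counts in either 24 h library, which allows up to 0.0466 CPM over the pair. FOXJ1, the forkhead factor of ciliated cells, was at 0.117 and 0.117 CPM at 1 h, which is 4 and 4 counts, and at 2.78 and 3.21 CPM at 0 h. Of 26 tested forkhead genes 3 were called lower and 2 higher, and 1 and 0 with DESeq2. The calls in both directions were near the 19.8% of all tested genes.

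Cholesterol genes rose together by small amounts, 18 higher and 1 lower of 25 with a median of 0.17, and 16 higher with the GC and length correction. MVD and MVK, enzymes of the mevalonate pathway, rose by 0.46 ± 0.048 and 0.43 ± 0.065, with MVD at 0.28 after the correction. MVD was at 65.5 and 66.2 CPM at 1 h and at 48.6 and 46.9 CPM at 0 h. INSIG1, which retains SREBP proteins in the endoplasmic reticulum, was at 61.5 and 62.9 CPM at 1 h and 46.1 and 49.2 CPM at 0 h (0.38 ± 0.049), and at 27.2 and 25.7 CPM at 24 h. MSMO1 showed the same sequence of levels, 151 and 146 CPM at 1 h, 108 and 114 CPM at 0 h and 80.1 and 74.3 CPM at 24 h. The lower member was STARD4 (-0.24 ± 0.053), which lost its call with the correction.

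In the BCL2 family, 9 of 16 members were higher and 2 lower at 1 h, with 5 higher after the GC and length correction and 4 without 1 h replicate 2. Those that rose included the cell death inducers BBC3, at 26.1 and 28.5 CPM at 1 h and 18.1 and 17.8 CPM at 0 h (0.60 ± 0.074, and 0.31 with the correction), PMAIP1 (0.31 ± 0.081) and BMF (0.28 ± 0.040), and the fall of the survival gene MCL1 is given above. SLC38A2, an amino acid transporter of the ATF4 list, was at 686 and 693 CPM at 1 h and at 1214 and 1258 CPM at 0 h (-0.84 ± 0.026), while 10 of 29 genes of that list rose and 4 fell. With the correction 5 of them rose and 5 fell, and 6 and 5 rose without 1 h replicate 1 and without 1 h replicate 2. Of 19 endoplasmic reticulum stress genes 9 rose and 2 fell, with CRELD2 at 369 and 400.3 CPM at 1 h and 265 and 274 CPM at 0 h (0.51 ± 0.031). With the GC and length correction 10 of the 19 rose and 0 fell. CCNE2, cyclin E2, was at 24.01 and 25.42 CPM at 1 h and at 36.2 and 41.1 CPM at 0 h (-0.65 ± 0.064). Of 26 replication genes 4 were called higher and 1 lower, and of 26 mitosis genes 3 higher and 2 lower, shares near the 19.8% of all tested genes. Without 1 h replicate 1 no replication gene was called, and without 1 h replicate 2 no mitosis gene was called higher.

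**Figure D4:**
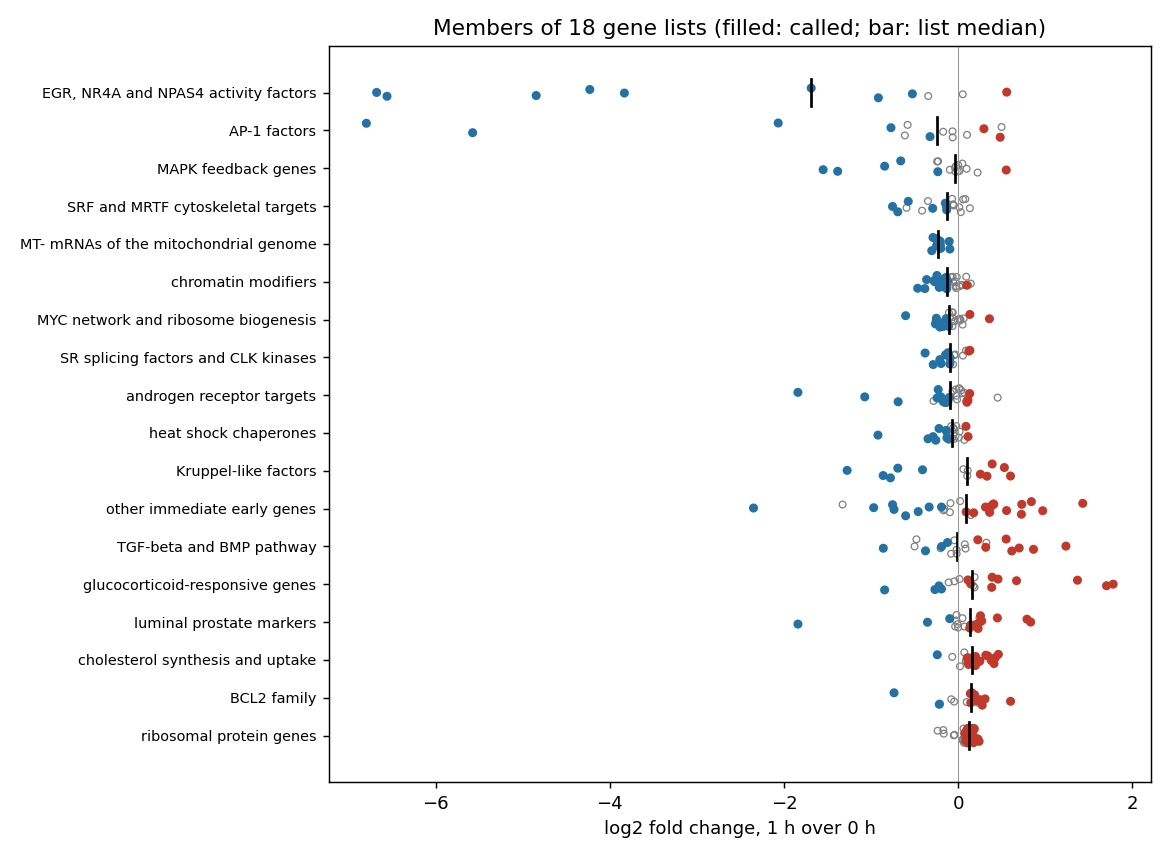
Log2 fold change of 1 h over 0 h (horizontal) of each tested member of 18 gene lists, filled red or blue where called higher or lower and open where not called, with a black bar at the list median. The EGR, NR4A and NPAS4 list has its median at -1.69, and the ribosomal protein and cholesterol lists form narrow groups right of 0.

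Some broad groups of abundant transcripts shifted by small amounts in 1 direction. Of 81 ribosomal protein genes 63 were higher and none lower, with a median of 0.12, and 38 were higher without 1 h replicate 1. With the GC and length correction 51 were higher and 1 lower. Their summed level was 58889 and 58373 CPM at 1 h and 52463 and 54747 CPM at 0 h. Ribosomal protein genes have many processed pseudogenes, and how the counting shared reads between copies is not given in the sources used here. All 13 mitochondrially encoded mRNAs were lower, with a range from -0.30 to -0.09, and 10 were lower with the correction. Mitochondrial reads made up 9.53% and 9.38% of counts at 1 h and 10.9% and 10.6% at 0 h. Nuclear genes of the respiratory chain had 24 higher and none lower of 80, but 9 to 38 were higher when 1 library was left out, 11 with DESeq2, and 22 were higher and 2 lower with the correction.

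Lists of nuclear regulators were more often lower than higher. Chromatin modifiers had 17 lower and 1 higher of 34, with a median of -0.13, among them KMT2D, a histone methyltransferase, at 209.9 and 210.3 CPM at 1 h and 295 and 285 CPM at 0 h (-0.46 ± 0.031), KMT2C (-0.38 ± 0.035) and KMT2A (-0.36 ± 0.036). Without 1 h replicate 1 there were 11 lower and without 1 h replicate 2 there were 10. With the GC and length correction 4 were lower and 3 higher, KMT2C was at -0.17 and KMT2A at -0.16. SR splicing factors and CLK kinases had 9 lower and 2 higher of 17, 5 lower without either 1 h library, and 4 lower and 2 higher with the correction, with SRSF7 at -0.38 ± 0.032. MYC network and ribosome biogenesis genes had 12 lower and 2 higher of 29, and 7 were lower without 1 h replicate 2. Genes named ZNF, most of them KRAB-type repressors, had 71 lower and 34 higher of 464, and 36 lower and 34 higher with the correction. Without 1 h replicate 1, 48 were lower and 21 higher, and without 1 h replicate 2, 39 were lower and 25 higher.

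Calls followed gene composition and size. In the quintile of genes with the lowest transcript GC content (median 38.68%), 2.3% were called higher and 18.9% lower. In the highest quintile (median 61.91%), 27.7% were called higher and 2.19% lower. Across 18705 genes with a known GC content the log2 fold change had a Spearman's rho of 0.328 with GC, given as a description across genes, which are not independent replicates and which share the same 4 libraries. Between the 2 libraries of a time, the log2 ratio of replicate pairs had a rho with GC of -0.0504 at 1 h and 0.129 at 0 h. Among protein-coding genes, the shortest quintile by gene span (median 5.628 kb) had 28.5% called higher and 5.17% lower, and the longest quintile (median 164.9 kb) 2.3% higher and 20.2% lower. With an offset for GC content and transcript length these became 15.4% and 7.37% in the shortest quintile and 5.81% and 5.53% in the longest. The share of calls that were higher was 54.05% without the offset and 63.7% with it. The part that GC content or length of the sequenced fragments had in the calls was not tested further.

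**Figure D5:**
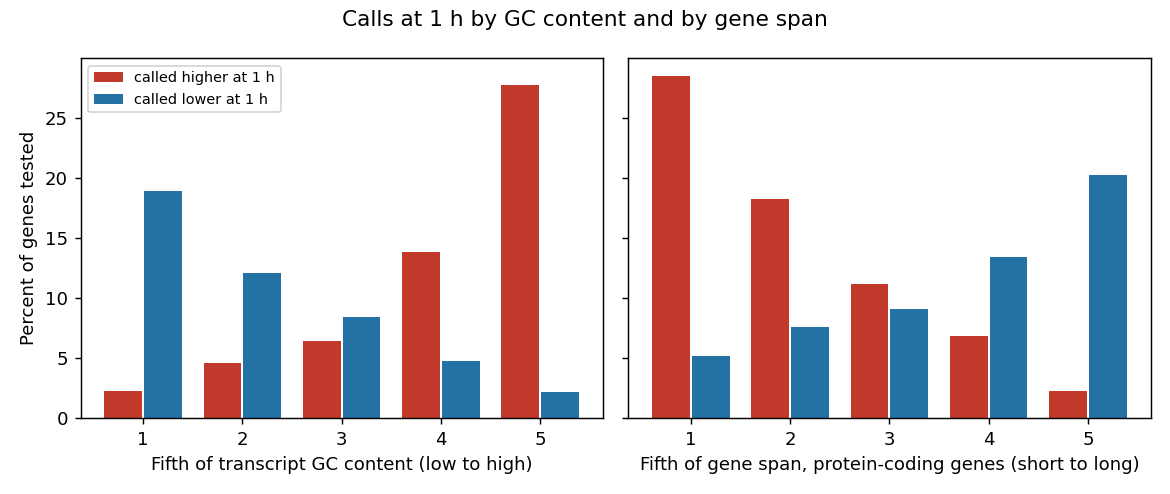
Percent of tested genes called higher (red) or lower (blue) at 1 h in each quintile of transcript GC content (left) and in each quintile of gene span for protein-coding genes (right). Calls higher climb from 2.3% to 27.7% with GC content and drop from 28.5% to 2.3% with span, and calls lower run the opposite way.

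Genes that changed at least 2-fold were compact, and they were also of low level. The 37 protein-coding genes called at least 2-fold higher had a median span of 3.854 kb and the 56 called at least 2-fold lower had 12.06 kb, beside 32.75 kb for all 14107 protein-coding genes tested. The median level of these sets was 3.31 CPM (higher) and 2.6 CPM (lower), beside 27.1 CPM for all protein-coding genes tested. Their median transcript GC content was 60.2% and 50.6%, beside 49.4%. Span was not separated from level or GC content here. The genes called higher at any size had a median span of 12.99 kb and those called lower 65.98 kb.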

How the data were processed

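RNA sequencing was analysed for 4 libraries of 22Rv1 cells, 2 at 1 h and 2 at 0 h of FOXA1 degradation. The deposited values were raw whole-number counts per Ensembl gene, with no normalization; per the submitters' processing notes STAR, featureCounts, DESeq2 and hg19 were used, and their versions, the annotation and the strand setting are not given in the sources used here. Rows that name no gene were not present.

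The 0 h columns held identical counts in the 1 h and 24 h tables. Of 57905 identifiers, 52338 were given a symbol from a table of gene names, GENCODE 29 or RefSeq. Genes were filtered with filterByExpr and fitted in edgeR 4.0.16 (R 4.3.3) with TMM, estimateDisp and robust glmQLFit, tested with glmQLFTest and called where the p-value, adjusted after Benjamini and Hochberg across the tested genes, was under 0.05. Standard errors of log2 fold changes are the absolute value over the square root of F. The 24 h table was fitted alike. Steps were tested on simulated data. Library totals were 34.0 to 35.5 M counts. Within pairs, counts varied more than Poisson counting, with a chi-square per degree of freedom of 2.04 at 1 h and 2.85 at 0 h, so no 2 libraries were counted as 1. The limit given for a count of 0 rests on 3 counts and covers counting error only.

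Members and all 60 gene lists were chosen with earlier results of these data known. The genes named are, beside those marked as chosen after their values were seen, the 12 largest called rises and the 12 largest falls among genes with a symbol, a mean of at least 1 CPM in the higher group and no overlap between times, up to 4 called members per list and direction with the largest changes, the 8 called genes of highest CPM outside the mitochondrial genome, and FOXA1, FOXA2, FOXA3, KLK2, KLK3 and KLK4 as a check of the labels. They were taken from 308 genes that this rule gave, and some genes are not reported here. Lists were described by counts and medians only. Alternatives were RLE or no scaling factors, DESeq2 1.42.0, other filters, a joint fit of the 6 dTAG libraries, the replicate number as a block, an offset for GC content and transcript length (mgcv 1.9.3, GENCODE 29 transcripts), and leaving out each library.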

Additional observations from a re-analysis of the deposited data

How the results depend on the processing

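The count of genes called, 3850, was 3892 with RLE factors, 3896 with library totals alone, 3620 without a filter, 3820 at 1 CPM or more in 2 libraries and 3477 in the joint fit. With DESeq2 it was 2044 (1109 higher, 935 lower, 61 at least 2-fold), and DESeq2 gave no adjusted p for 216 of the genes called by edgeR. Leaving out 1 library each gave 2232 to 3422 called, 1234 to 1878 higher, 998 to 1544 lower and 147 to 219 at least 2-fold. The 1 CPM filter left 123 genes at least 2-fold changed. With the offset for GC content and transcript length, 2788 were called (1776 higher, 1012 lower), of which 1967 were among the 3850. With that offset the log2 fold change reversed for KLK4 (-0.026), DST (0.036), FOXD4 (-0.0037), HSF1 (-0.032), HSPB1 (-0.099) and ISG15 (-0.029), and 77 of the 306 named genes that were called lost their calls; the cause was not tested. With the replicate number as a block 3909 genes were called and 1 named gene, MCM7, lost its call. Deviations of same-numbered libraries had a correlation of 0.00471, so the numbers were not taken to pair the libraries. With 2 libraries per group, small changes of low-count genes rest on few counts, and 56 of 290 named genes with a DESeq2 adjusted p missed its threshold.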

Other observations

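Noncoding and clock genes were not described above. Among nuclear long noncoding RNAs, 7 were lower and 3 higher of 21. NEAT1, the scaffold of paraspeckles, was at 1149 and 1164 CPM at 1 h and 864 and 938 CPM at 0 h (log2 0.36 ± 0.027, and 0.61 with the GC and length correction), whereas MALAT1, a speckle RNA, was at 889.6 and 891 CPM at 1 h and 1014 and 1061 CPM at 0 h (-0.22 ± 0.026, and -0.06 with the GC and length correction). SNHG3 (-0.31 ± 0.049) and SNHG15 (-0.29 ± 0.047), hosts of small nucleolar RNAs, were lower, and SNHG8 was higher (0.22 ± 0.045). Of 75 small nucleolar RNAs tested, 12 were lower and 0 higher, with a median of -0.37, beside 9.12% and 10.7% of all tested genes. Reads of these small RNAs and of the introns that hold them cannot be told apart in gene counts.

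Of 22 circadian clock genes, 6 rose and 3 fell, beside 10.7% and 9.12% of all tested genes. PER2, a repressor of the clock, was at 28.96 and 28.35 CPM at 1 h and 42.1 and 43.7 CPM at 0 h (-0.58 ± 0.059). The D-box factors DBP, at 21.9 and 22.8 CPM at 1 h and 13.7 and 15.3 CPM at 0 h (0.62 ± 0.081), and TEF (0.70 ± 0.075) rose. PDK4, a brake on pyruvate oxidation, was at 1024 and 1028 CPM at 1 h and 763 and 771 CPM at 0 h (0.42 ± 0.025). VEGFA was at 200.2 and 204 CPM at 1 h and 148 and 142 CPM at 0 h (0.48 ± 0.033), while of 29 hypoxia and glycolysis genes 1 rose and 3 fell, and 1 fell without 1 h replicate 2. ADM of that list was at 3.28 and 5.22 CPM at 1 h and 11.7 and 11.3 CPM at 0 h (-1.44 ± 0.14).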
